A study of Rattus norvegicus with 6 samples.

Results

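The major heat shock proteins of the cytosol and the mitochondria were followed in rat fibroblast-like synoviocytes (RA-FLS) treated with TNF-α alone or with TNF-α and emodin (EMO), an anthraquinone of rhubarb. The genes were taken by name from the gene table: Hspa1a, Hspa1b, Hspa8 and Hsph1 of the HSP70 class, Hsp90aa1 and Hsp90ab1, Dnajb1, Hspb1, and the mitochondrial pair Hspd1 and Hspe1. Of these 10 genes, 9 had a row among the 34156 genes of the table. No row bore the name Hspa1a, so only its promoter window was examined here. RNA-seq libraries were made from poly(A)-selected RNA of 6 samples, 3 given TNF-α at 10 ng/ml (TNF-α group) and 3 given the same TNF-α together with 80 μmol/L EMO (TNF-α+EMO group). All samples were labelled wild type and day 5, although the study's methods describe a shorter incubation. The cells were purchased as rat RA-FLS and used after passage. TNF-α was given to every sample used here, so each difference below is that of EMO on top of TNF-α, and levels without TNF-α or in a vehicle were not analysed here. The study's methods speak of 3 biological replicates per condition, but nothing in the labels says whether the 3 samples of a group were separate cultures. The p-values thus measure the spread between these samples, which may be technical.

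Heat shock proteins are molecular chaperones that keep other proteins folded. In the cytosol, the HSP70 proteins bind unfolded stretches of a client with the help of J-proteins, which start the ATP cycle, and of nucleotide exchange factors, which end it, and many signalling proteins are then handed to HSP90. In the mitochondrial matrix, the chaperonin Hspd1 encloses proteins under the lid formed by its partner Hspe1. Most of these genes are known targets of the heat shock factor HSF1, which binds repeats of the letters GAA and their complement TTC, called heat shock elements.

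Promoter stretches are shown first because these repeats are the feature through which the genes are known to be co-regulated. They come from RefSeq on the rat build GRCr8, which is not the build of the counts, and cover 250 bases before and 50 bases from the transcript start. Windows were found for 8 of the 10 genes (none for Hsp90aa1 and Hspa1b). Each is printed 5′ to 3′ on the gene's strand with the GAA and TTC units in capitals.
Hspe1, chr9:64084247-64084294, plus strand: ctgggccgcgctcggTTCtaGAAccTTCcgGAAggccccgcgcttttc
Hspd1, chr9:64084247-64084287, minus strand: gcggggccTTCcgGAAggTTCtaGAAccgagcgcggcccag
Hspa8, chr8:50080444-50080486, plus strand: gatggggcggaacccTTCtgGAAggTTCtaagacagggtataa
Hspa8, chr8:50080286-50080328, plus strand: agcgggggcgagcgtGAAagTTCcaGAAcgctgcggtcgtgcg
Hsph1, chr12:10427317-10427359, plus strand: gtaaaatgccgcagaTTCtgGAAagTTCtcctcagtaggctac
Hspb1, chr12:26432388-26432445, minus strand: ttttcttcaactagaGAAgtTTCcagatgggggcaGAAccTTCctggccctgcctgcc
Dnajb1, chr19:41431102-41431167, minus strand: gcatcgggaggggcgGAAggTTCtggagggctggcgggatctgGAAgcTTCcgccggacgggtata

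A run of 3 alternating units, spelled GAANNTTCNNGAA or TTCNNGAANNTTC and so covering both strands, was present in the windows of 4 of the 8 genes, Hspa8, Hspd1, Hspe1 and Hsph1. The same letters were found in 0.798% of all 33469 rat promoters of this length and in 3 of the 99 other chaperone and co-chaperone genes with a window, which were Cct4, Chordc1 and Dnaja1. Hspd1 and Hspe1 lie head to head with starts 290 bases apart, so their windows share 211 bases, and the 4 units printed for each are the same bases read from opposite strands. They lie 65 to 48 bases upstream of the Hspe1 start and 242 to 225 bases upstream of the Hspd1 start. Hspa8 had such a run 55 to 43 bases upstream and another 213 to 201 bases upstream, and Hsph1 had it 36 to 24 bases upstream. Hspb1 and Dnajb1 each held only separate pairs of units (GAANNTTC or TTCNNGAA, which also lie inside the longer run). A pair was present in 6 of the 8 genes and in 15.9% of all promoters. The windows of Hsp90ab1 and Hspa1a held none. The windows follow the annotated RefSeq starts, which were not checked here, so elements outside a window would be missed. The CCAAT box (CCAAT or ATTGG) was present in 4 of the 8 genes against 37.5% of all promoters, and the letters TATAAA or TTTATA were present in none of the 8 against 14.2%. Only the exact letters were searched, so variants such as the tataa in a printed Hspa8 stretch were not counted. A match describes the letters only, and says nothing about binding in these cells.

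**Figure D1:**
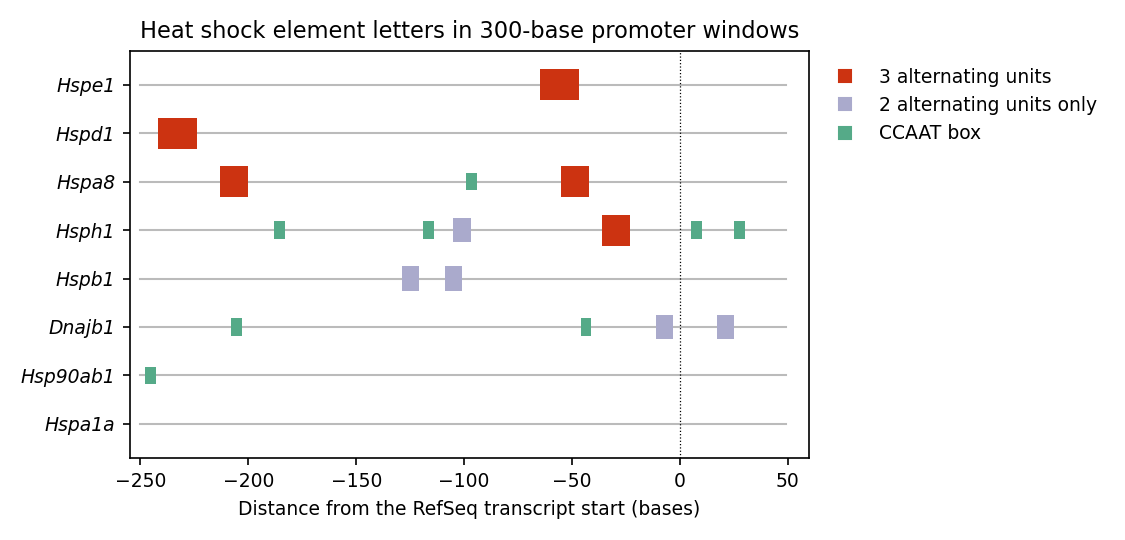
Heat shock element letters and CCAAT boxes in the RefSeq promoter windows of 8 heat shock protein genes, drawn to scale against the distance from the transcript start in bases (dotted line at the start). Red blocks are runs of 3 or more alternating units, present in Hspe1, Hspd1, Hspa8 and Hsph1, lilac blocks are pairs outside such a run, and green blocks are CCAAT boxes.

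The libraries held 16813322 to 17794455 counts, and 13614 genes had at least 10 counts in at least 3 libraries and were tested. EMO was accompanied by very broad changes. At an adjusted p under 0.05 by edgeR, 39.4% of the genes tested were higher and 41.4% were lower in the TNF-α+EMO group, so a call in either direction is common in these data. The median gene differed by 0.104 to 0.109 on the log2 scale between TNF-α libraries and by 0.130 to 0.232 between TNF-α+EMO libraries, against 0.935 to 1.01 between libraries of different groups. TNF-α+EMO replicate 3 stood apart from the other libraries of its group, at 0.179 and 0.232 from them against 0.130 between those. Without it, 6 of the 8 heat shock protein genes tested were higher instead of 7, Dnajb1 being lost (0.11, adjusted p = 0.10 by edgeR), and the rise of Hspe1 was 1.37 on the log2 scale. Markers of synovial fibroblasts moved with EMO: of 14 listed genes, 13 were in the table and 10 were tested, of which 9 fell and 1 (Dcn, at 0 to 4 counts with TNF-α) rose, and their summed level went from 12873 to 13890 CPM (counts scaled to the library total) with TNF-α to 1991 to 2138 CPM with EMO. The defining markers Thy1, Prg4 and Pdpn were near 0 in every library, at no more than 7 counts. Summed macrophage markers (8 listed, 2 tested) lay at 72.8 to 78.7 CPM with TNF-α and 41.4 to 44.3 CPM with EMO, nearly all of it Cd14, which fell by 1.10 on the log2 scale, and Cd68, which rose 1.68-fold (adjusted p = 4.4e-07 and 0.00024 by edgeR), while Ptprc, Csf1r, Lyz2, Adgre1, Mrc1 and Cd163 had at most 6 counts. Endothelial markers (6 listed, 5 in the table) summed to 4.18 to 4.59 and 0.731 to 1.22 CPM. Lymphocyte markers summed to 0.236 to 0.412 and 0 to 0.173 CPM, with 4 of 7 at 0 in every library. Epithelial markers summed to 601 to 660 and 111 to 127 CPM, of which nearly all was Krt8, and Epcam was at 0. The part of these shifts in the results below was not tested, and in bulk RNA fewer cells of a type and less RNA per cell cannot be told apart.

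With EMO, 7 of the 8 heat shock protein genes tested were higher at an adjusted p under 0.05, none was lower, and Hsp90aa1 did not pass. The background for a higher call was the 39.4% given above, and the median log2 fold change was 0.61 over these 8 genes and -0.01 over all genes tested. Hspb1 rose 3.49-fold and Hspe1 2.81-fold. Hsph1, Hspa8 and Hspd1 rose between 1.43-fold and 1.66-fold, and the rise of Hsp90ab1 (1.12-fold) and Dnajb1 (1.14-fold) was small. The 7 genes that were higher also had no overlap between the groups in normalized counts, as had 40.3% of all genes tested in that direction and 42.5% in the other. A log2 fold change over 1 was reached only by Hspb1 and Hspe1 among the 8, against 19.5% of all genes tested, and none of the 8 was under -1, against 27.8%. Hspa1b, the inducible HSP70, had too few counts to be tested.

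**Figure D2:**
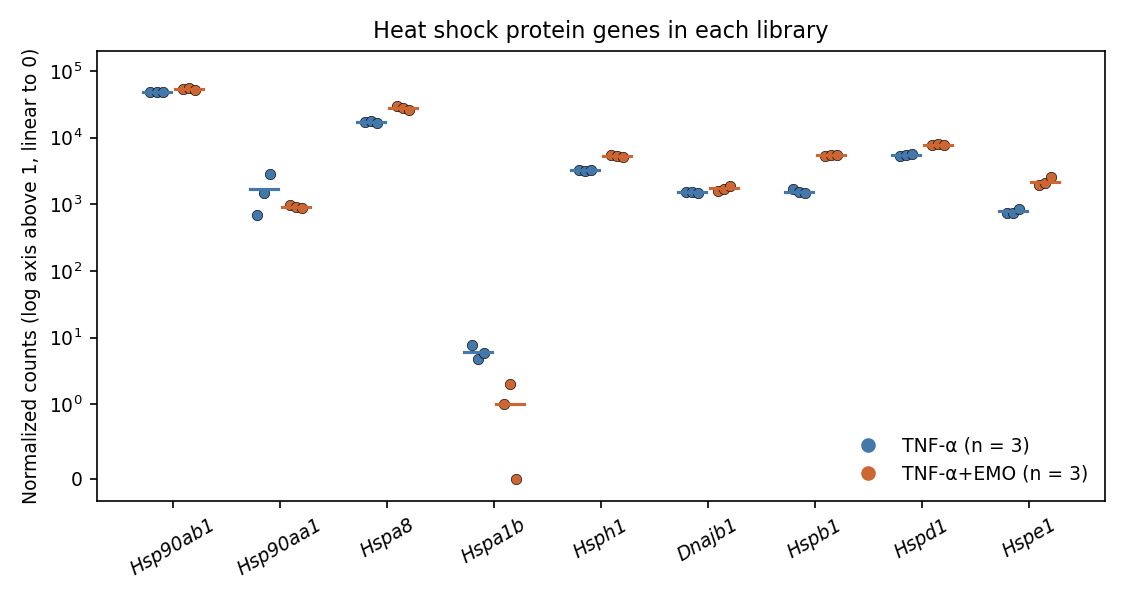
Normalized counts of 9 heat shock protein genes in each library (log axis above 1, linear to 0), with TNF-α libraries in blue, TNF-α+EMO libraries in orange and bars at the group means (n = 3 each). The groups separate upwards for 7 genes, overlap for Hsp90aa1, where the TNF-α libraries spread from 696 to 2855, and are both near 0 for Hspa1b.

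Hsp90ab1 (ENSRNOG00000019834, Rnor_6.0 chr9:17817721-17823243, plus strand) encodes HSP90β, the constitutive cytosolic HSP90. The TNF-α group gave 48545, 48582 and 49049 counts, and the TNF-α+EMO group gave 51817, 53677 and 50901. Scaled for library composition, these were 47617, 47375 and 47782 against 53445, 54926 and 51849 normalized counts. All 3 EMO-treated libraries lay above all 3 others, by a small margin next to the level of the gene. On the log2 scale the difference was 0.17 (standard error, SE, 0.05, adjusted p = 0.0080 by edgeR). The call did not hold when libraries were scaled by their totals alone (0.05, adjusted p = 0.36 by edgeR), when 10 counts were asked of all 6 libraries (0.09, adjusted p = 0.094), and without TNF-α+EMO replicate 2 (0.14, adjusted p = 0.050).

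Hsp90aa1 (ENSRNOG00000059714, chr6:135107271-135112775, minus strand) encodes HSP90α, the more stress-responsive isoform. Its counts were 710, 1532 and 2931 with TNF-α against 955, 889 and 849 with TNF-α+EMO. The TNF-α libraries were thus spread around the tight EMO-treated group, with replicate 1 below it and replicates 2 and 3 above it. The highest TNF-α library held 4.10 times the normalized count of the lowest. Only 47 of the 10277 genes with a mean of at least 100 counts (0.457%) had a larger ratio among the TNF-α libraries. The median gene had 1.10, and none of the other 7 heat shock protein genes tested exceeded 1.18. The log2 fold change of Hsp90aa1 was -0.87 (SE 0.57), which did not pass the test (adjusted p = 0.22 by edgeR). It depended on single TNF-α libraries. Without replicate 1 it was -1.24 (SE 0.29, adjusted p = 0.013 by edgeR), and without replicate 3 it was -0.25 (SE 0.33, adjusted p = 0.51). As a share of both HSP90 genes, Hsp90aa1 held 1.44, 3.06 and 5.64% of the counts with TNF-α and 1.81, 1.63 and 1.64% with EMO (two-sided exact permutation test, p = 0.4, adjusted p = 0.45 over 9 such measures). The counts on the cytosolic HSP90 genes were thus mostly on Hsp90ab1 in each of the 6 libraries. Rows that the table describes as HSP90α or similar to it had fewer counts, LOC103692716 with 6.14% and LOC680491 with 17.4% of the counts of Hsp90aa1, and both rose (log2 fold changes of 1.19 and 0.49, adjusted p = 0.0013 and 0.038 by edgeR). How reads were shared between such related rows is not given in the sources used here, so the value of Hsp90aa1 is uncertain.

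Hspa8 (ENSRNOG00000034066, chr8:44990014-44993179, plus strand) encodes HSC70, the constitutive HSP70 of the cytosol. Its counts were 17690, 17962 and 16748 with TNF-α and 28556, 27273 and 25590 with TNF-α+EMO. The lowest EMO-treated library lay far above the highest TNF-α library. The rise was 0.70 on the log2 scale (SE 0.06, adjusted p = 9.5e-07 by edgeR). In absolute terms this was the largest gain of counts among the genes, from 17061 ± 651 to 27809 ± 1696 normalized counts (SD, n = 3 each). Reads may be split with rows that the table describes as similar to Hspa8: LOC680121 on chromosome 11, with 13.8% of the counts of Hspa8, had a log2 fold change of 0.68 (adjusted p = 0.0017 by edgeR), LOC688655 on chromosome 6, with 3.29%, one of 0.67 (adjusted p = 0.063), and LOC688932 on chromosome X, with 0.176%, one of 0.60 (adjusted p = 0.072). These log2 fold changes were close to that of Hspa8 itself.

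Hspa1b (ENSRNOG00000050647, chr20:4877324-4879779, minus strand) encodes the stress-inducible HSP70, which is low in resting cells of many kinds. It had 8, 5 and 6 counts with TNF-α and 1, 2 and 0 with TNF-α+EMO. All 6 libraries were close to the detection floor, and the 0 still allows up to 3 counts in that library. Summed over the libraries there were 19 counts with TNF-α and 3 with EMO, a ratio of 0.153 per count sequenced (exact 95% interval 0.0290 to 0.520, covering counting error only). With no filter on low counts, edgeR called it lower with EMO (adjusted p = 0.029), but its fitted fold change is not given because it depends on the prior count. Hspa1b held 0.0363 ± 0.00870% of the counts on Hspa1b and Hspa8 with TNF-α and 0.00361 ± 0.00367% with EMO (SD, n = 3 each). In this comparison the exact permutation test gave p = 0.1, the smallest that 3 against 3 can give (adjusted p = 0.13 over the 9 measures). The gene lies within the spans of 4 other rows of the table, RT1-CE7, RT1-CE4 and RT1-CE1 on the same strand and AABR07044408.1 on the other, so its counts could be affected by how overlapping rows were handled. A separate row named LOC108348108, which RefSeq lists as Hspa1b, had 1 count in all libraries together. How reads shared by closely related genes were counted is not given in the sources used here. The low counts of Hspa1b, and their ratio between the groups, are therefore uncertain as a measure of its mRNA.

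Hsph1 (ENSRNOG00000000902, chr12:6322668-6341902, minus strand) encodes HSP110, a nucleotide exchange factor for HSP70 that also holds unfolded proteins. Its counts were 3296, 3187 and 3384 with TNF-α and 5298, 5242 and 5053 with TNF-α+EMO. The groups were far apart for their spread. EMO over TNF-α, the difference was 0.73 on the log2 scale (SE 0.06, adjusted p = 3.9e-07 by edgeR). Hsph1 and Hspa8 had the most similar profiles of any pair of the 8 genes, with a Euclidean distance of 0.151 between their log2 normalized counts centred over the 6 libraries. Such a distance depends largely on the log2 fold changes, which were close (0.73 and 0.70).

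Dnajb1 (ENSRNOG00000021824, chr19:24747178-24750919, plus strand) encodes HSP40, the J-protein that is induced together with HSP70 on heat shock. Its counts were 1565, 1594 and 1538 with TNF-α and 1560, 1661 and 1871 with TNF-α+EMO. Raw counts of the groups overlapped, and only after scaling did the lowest EMO-treated library (1609 normalized counts) stand above the highest TNF-α library (1554). By edgeR the log2 fold change was 0.18 (SE 0.07, adjusted p = 0.036). Of 14 alternative analyses 11 gave no call for Dnajb1, with adjusted p up to 0.37 where libraries were scaled by totals alone, and with adjusted p = 0.057 in edgeR with a replicate block.

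Hspb1 (ENSRNOG00000023546, chr12:23839399-23841049, minus strand) encodes the small heat shock protein HSP27, an ATP-independent holder of unfolded proteins that also acts on actin filaments. Its counts were 1703, 1543 and 1524 with TNF-α and 5077, 5350 and 5434 with TNF-α+EMO. Every EMO-treated library was well above every TNF-α library, and as a ratio of the group means this difference was the largest of the 8 genes tested. Hspb1 thus rose by 1.80 on the log2 scale (SE 0.07, adjusted p = 7.6e-10 by edgeR). Among the 10277 genes with a mean of at least 100 counts, the profiles closest to that of Hspb1 over the 6 libraries were those of Rab40c, Hectd3 and Flcn (Euclidean distances of 0.0674, 0.0895 and 0.0951). Their log2 fold changes were 1.79, 1.76 and 1.83, so this likeness largely restates a fold change close to that of Hspb1. Within the heat shock proteins the nearest to Hspb1 was Hspe1, at a distance of 0.538.

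Hspd1 (ENSRNOG00000014525, chr9:61680530-61690956, minus strand) encodes HSP60, the subunit of the mitochondrial chaperonin barrel. Its counts were 5371, 5629 and 5734 with TNF-α and 7390, 7914 and 7546 with TNF-α+EMO. Again the groups did not overlap. Hspd1 rose by 0.52 on the log2 scale (SE 0.06, adjusted p = 6.6e-06 by edgeR). Hspe1 (ENSRNOG00000051624, chr9:61692154-61694599, plus strand) encodes HSP10, its lid, and starts next to Hspd1 on the opposite strand. Its counts were 745, 763 and 887 with TNF-α and 1917, 2014 and 2491 with TNF-α+EMO. It varied more between libraries than Hspd1 did, with replicate 3 the highest of each group. Hspe1 rose by 1.49 on the log2 scale (SE 0.11, adjusted p = 2.3e-07 by edgeR). The log2 ratio of Hspe1 to Hspd1 counts, computed in each library, went from -2.81 ± 0.10 to -1.84 ± 0.21 (SD, n = 3 each). Lid and barrel share the promoter repeat printed above. The ratio was higher in all 3 EMO-treated libraries than in any TNF-α library, and the exact permutation test gave p = 0.1, the smallest possible here (adjusted p = 0.13 over 9 measures).

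The 5 genes Hspa8, Hsph1, Hspb1, Hspd1 and Hspe1 kept their calls in all 14 alternative analyses. Per base of transcript, as CPM per kilobase of the deposited gene length, Hsp90ab1 was the most abundant of the genes in both groups, with a level of 1082 ± 12.5 with TNF-α and 1123 ± 43.5 with EMO (SD, n = 3 each). It was followed by Hspa8 at 532 ± 16.5 and 803 ± 57.9, and by Hspe1 at 177 ± 18.2 and 459 ± 57.4, although the Hspe1 level rests on a deposited gene length of only 267 bases. Next with TNF-α came Hspd1 (148 ± 5.60), Hspb1 (107 ± 6.27) and Hsph1 (56.4 ± 1.97). With EMO, Hspb1 (345 ± 7.41) lay above Hspd1 (196 ± 7.40), and Hsph1 (86.4 ± 3.64) kept its place. Dnajb1 was at 41.2 ± 0.55 and 43.3 ± 3.26. Hsp90aa1 was at 37.0 ± 24.3 and 18.7 ± 1.43, and Hspa1b stood last at 0.152 ± 0.0365 and 0.0235 ± 0.0234. Only Dnajb1 and Hsp90aa1 overlapped among neighbours in this order, and only with TNF-α. The order was the same with the FPKM values of the authors.

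**Figure D3:**
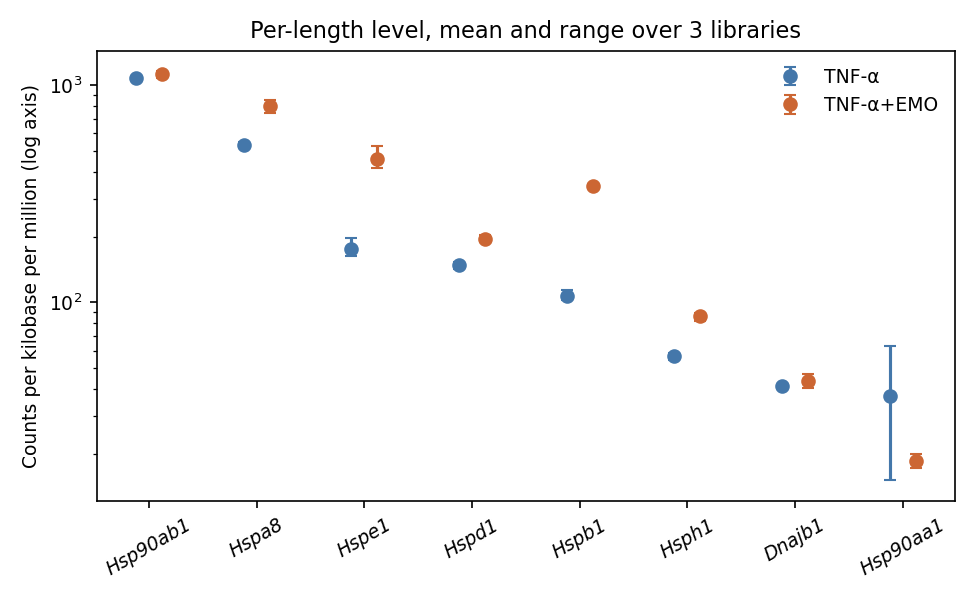
Per-length level of 8 heat shock protein genes, as CPM per kilobase on a log axis, with points at the mean and bars over the range of 3 libraries (TNF-α blue, TNF-α+EMO orange). Hsp90ab1 is at the top in both groups, and Hspb1 passes Hspd1 with EMO, from 107 to 345 against 148 to 196. Hspa1b, near 0, is left out.

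Together the 9 genes took 0.477 ± 0.00884% of all counts with TNF-α and 0.585 ± 0.0214% with EMO (SD, n = 3 each). The make-up of this pool also differed. Hsp90ab1 held 60.4 ± 0.54% of it with TNF-α and 51.1 ± 0.54% with EMO, while Hspa8 went from 21.6 ± 1.01 to 26.6 ± 1.13%, Hspb1 from 1.97 ± 0.15 to 5.18 ± 0.25% and Hspe1 from 0.988 ± 0.083 to 2.10 ± 0.35%.

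The other genes of the chaperone network were taken from 10 lists of 119 genes, of which 109 were tested. Of these 76 were higher, 18 were lower and 15 did not pass, beside backgrounds of 39.4% higher and 41.4% lower. The list of heat shock factors and proteins that bind them (5 tested) gave 3 higher and 2 lower. Hsf1, Hsbp1 and Hsf2bp were higher, and Hsf2 and Hsf4 were lower. The median log2 fold change was 0.60, the value of Hsbp1. Hsf1, the master regulator of the response, had 1208, 1123 and 1197 normalized counts with TNF-α and 2304, 2455 and 2581 with TNF-α+EMO, and so rose by 1.06 on the log2 scale (SE 0.07, adjusted p = 6.7e-08 by edgeR). Hsf2, a second factor of the family, fell by 0.34 on the log2 scale (adjusted p = 0.0043 by edgeR). The transcript of Hsf1 is not a measure of its activity, which is known to be set after translation.

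Around the cytosolic HSP70 genes the changes went both ways. The list of other HSP70 family members, drawn up for the cytosol (6 tested), gave 2 higher and 3 lower, with a median of -0.55. This median counts each gene alike. The summed level of the list went from 525 to 554 CPM with TNF-α to 1117 to 1375 CPM with EMO. Most of these counts were on Hspa4, which rose by 1.71 on the log2 scale (adjusted p = 2.0e-09 by edgeR). The list also included Hspa13, at 0.10 (adjusted p = 0.30 by edgeR), whose place in the cytosol was not examined here. Hspa4l, an HSP110 relative of Hsph1, rose by a log2 fold change of 2.87 (adjusted p = 1.4e-09 by edgeR), and Hspa2, an HSP70 best known from the testis, fell by 2.85 on that scale (adjusted p = 1.2e-07). Compared with Hsph1 in the same libraries, the log2 ratio of Hspa4l counts went from -3.35 ± 0.10 to -1.22 ± 0.18 and that of Hspa4 went from 0.76 ± 0.07 to 1.74 ± 0.09. Of the 21 J-proteins listed as cytosolic, the wider family of Dnajb1, 13 were higher and 3 lower (median 0.32). Their places in the cell were not examined here. Dnajb2 rose (1.58) and Dnajc27 fell (-1.43), and Dnaja1, the other main HSP70 partner, was at -0.07 (adjusted p = 0.28 by edgeR). Of the 3 list genes with the 3-unit promoter run, Dnaja1 was thus not called, while Cct4 (0.49, adjusted p = 1.2e-05 by edgeR) and Chordc1 (0.21, adjusted p = 0.033) were higher. Of the 9 BAG proteins and further HSP70 co-chaperones tested, 6 were higher and 1 lower (median 0.29). Hspbp1, an exchange factor, rose (1.07), Stip1, which joins HSP70 to HSP90, fell (-0.32, adjusted p = 0.00031 by edgeR), and Bag3, a typical HSF1 target of protein quality control, was at -0.14 (adjusted p = 0.070). Among the 16 co-chaperones of HSP90, 11 were higher and 4 lower (median 0.37), with Ppid highest (1.34) and Fkbp5, which is also a target of the glucocorticoid receptor, lowest (-1.49).

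Of the 5 other genes listed as small heat shock proteins and tested, 3 were higher and 1 lower (median 1.94). That median is the value of Hspb11, whose kinship to Hspb1 was not examined here. Of the listed genes, Hspb8 (2.15) lay above that median and Hspb2 (0.62, not called) below it, beside the 2 described next. Cryab, which encodes αB-crystallin, had 235, 248 and 241 normalized counts with TNF-α and 9612, 9704 and 8773 with TNF-α+EMO. This was a 38.8-fold rise (log2 fold change 5.28, standard error 0.08, adjusted p = 1.6e-12 by edgeR). Hspb6 fell by 2.32 on the log2 scale (adjusted p = 3.4e-08 by edgeR). Hspb8 was named after its values were seen, and its log2 count ratio to Hspb1 went from 0.71 ± 0.11 to 1.06 ± 0.02. Of the 17 other mitochondrial chaperones and proteases tested, 14 were higher and 1 lower (median 0.86). Hspa9, the HSP70 of the matrix, had 4084, 4257 and 4129 normalized counts with TNF-α and 26619, 25785 and 24329 with TNF-α+EMO, a 6.15-fold rise (adjusted p = 2.4e-11 by edgeR). The protease gene Lonp1 rose 6.39-fold and Spg7, of the inner membrane, fell by 0.78 on the log2 scale. The fold changes of Hspa9 and Lonp1 were above those of Hspd1 (1.43) and Hspe1 (2.81), a difference between genes that was not tested.

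**Figure D4:**
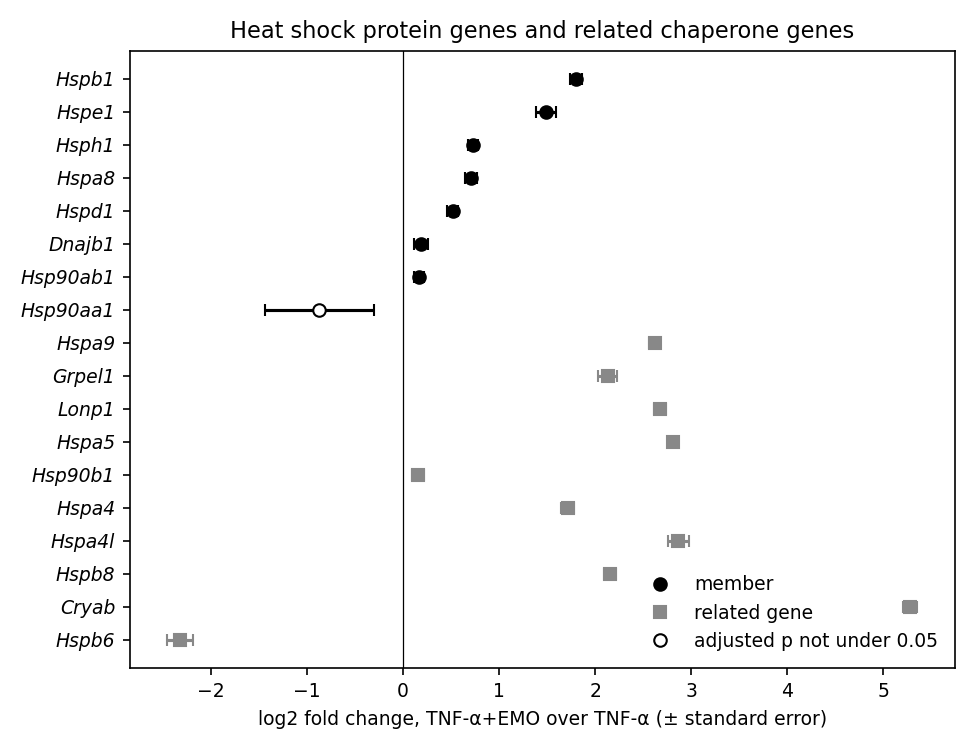
Log2 fold change of TNF-α+EMO over TNF-α with its standard error for the 8 heat shock protein genes tested (black circles, open where the adjusted p was not under 0.05) and for related chaperone genes (grey squares), of which Grpel1, Hspa4 and Hspb8 were chosen after their values were seen. Lonp1, Hspa4l, Cryab and Hspb6 were named as the highest or lowest called genes of their lists. Hspb1 at 1.80 and Hspe1 at 1.49 are the highest circles, while Hspa9 at 2.62, Hspa5 at 2.81 and Cryab at 5.28 lie further to the right.

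All 8 subunits of the cytosolic chaperonin CCT were tested and 7 were higher, none was lower, and the log2 fold changes of those called ran from 0.22 (Cct6a) to 0.85 (Cct2), with a median of 0.54 over the 8. Of the 6 prefoldin subunits, which pass actin and tubulin to CCT, 5 were higher and none lower (median 0.92), from Pfdn1 (0.52) to Pfdn2 (1.86). Pfdn2 had 1305, 1525 and 2361 normalized counts in the TNF-α+EMO libraries, with replicate 3, the library that stood apart, the highest. Without that library 5 prefoldin genes were still higher, with a median of 0.65 over the 6 and Pfdn2 at 1.56. Chaperones of the endoplasmic reticulum (16 tested) gave 12 higher and 3 lower (median 0.49). Hspa5, which encodes the HSP70 BiP, rose 7.02-fold, Dnajb9 rose 11.5-fold and Pdia4 fell by 1.08 on the log2 scale (adjusted p = 8.9e-12, 5.4e-11 and 1.6e-08 by edgeR).

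**Figure D5:**
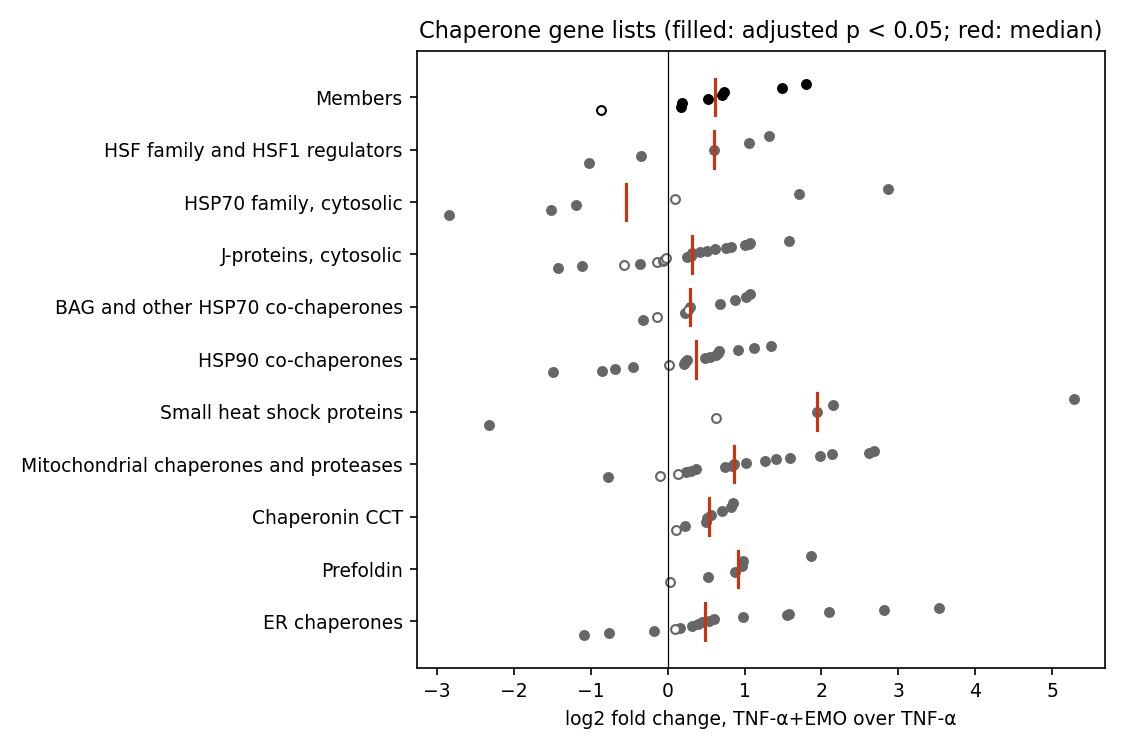
Log2 fold change (TNF-α+EMO over TNF-α) of each gene tested in 10 chaperone lists and among the 8 heat shock protein genes, with filled points at an adjusted p under 0.05 and red bars at the medians. The medians run from -0.55 for the list of other HSP70 family genes to 1.94 for the list of other small heat shock proteins. That of the 8 genes is 0.61.

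The HSP70 and HSP90 genes of different compartments were set side by side within each library. Relative to Hspa8 of the cytosol, the log2 count ratio of Hspa5 of the endoplasmic reticulum went from 0.03 ± 0.11 to 2.14 ± 0.06 and that of Hspa9 of the mitochondria from -2.04 ± 0.05 to -0.12 ± 0.02 (SD, n = 3 each). In both, every EMO-treated library lay above every TNF-α library, with p = 0.1 by the exact permutation test. The HSP90 pair was unlike this. The log2 ratio of Hsp90b1, the HSP90 of the endoplasmic reticulum, to Hsp90ab1 was -1.47 ± 0.07 with TNF-α and -1.48 ± 0.08 with EMO, with overlapping groups (exact permutation p = 0.9). Of the 9 measures compared within libraries, 7 did not overlap between the groups. For counts of single genes, 40.3% of all genes tested did not overlap in the upward direction and 42.5% in the downward direction. The 7 include the Hspa1b share, which rests on 0 to 8 counts a library. They also include the ratios of Hspb8 and Hspa4, genes chosen after their values were seen, and that of Hspa4l, named as the highest called gene of its list. None of the 9 measures could pass a threshold of 0.05, since an exact permutation test of 3 against 3 cannot go below p = 0.1.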

How the data were processed

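Counts per gene were deposited by the authors for 6 libraries, with FPKM values (counts scaled by gene length and library size) beside them. Per the submitters' processing notes, reads were handled with FastQC, Trimmomatic and HISAT2 on Rnor_6.0. The counting program and strand setting are not given in the sources used here. The deposited columns of the authors' own comparison (fold changes and p-values) were not used, and for Hspa1a only the promoter window was examined.

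Counts were normalized by TMM and tested with edgeR 4.0.16 (R 4.3.3; quasi-likelihood F test, robust fit, Benjamini-Hochberg adjustment) for 13614 genes that reached 10 counts in 3 or more libraries, which held 16813322 to 17794455 counts. The shared biological coefficient of variation came to 0.121. Normalized counts refer to the mean effective library size. Per-length levels used the deposited gene length. Intervals cover counting error only. DESeq2 1.42.0 and limma 3.58.1, on log2 of the deposited FPKM plus 1, were alternatives. Scripts were tested on simulated data in which far fewer genes changed than were called here. That run therefore does not show how well the scaling works under such broad changes. Ratios within libraries were compared by exact permutation tests.

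The genes and lists were chosen with earlier results of these data known. Named were all 10 genes, the highest and lowest called gene of each list with a mean of at least 100 counts, 8 fixed genes (Hsf1, Hsf2, Hspa9, Bag3, Stip1, Dnaja1, Hspa5 and Hsp90b1), and the 3 genes nearest to the member with the largest change. Related rows that could share reads were chosen, from the table's descriptions, after their values were seen.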

Additional observations from a re-analysis of the deposited data

How the results depend on the processing

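Across DESeq2, 3 other scalings, 2 other filters, the replicate block, limma on FPKM and leaving out each library, 5 to 7 heat shock protein genes were higher, and 2 when a log2 fold change over 1 was also asked. The count of those lower was 1 with no filter on low counts (Hspa1b) and ranged from 0 to 1 over the fits that each left out 1 library (Hsp90aa1 without TNF-α replicate 1). The median log2 fold change was 0.50 with library totals only, where the median of all genes fell to -0.12, 0.52 with no filter and 0.54 with at least 10 counts in all 6 libraries. Counts of list genes stayed within 1.5 times their values, at 65 to 78 higher and 18 to 21 lower, and no direction was reversed for the 8 genes tested. With the replicate block, 6 of the 8 genes were higher and Dnajb1 lost its call. A check for pairing of libraries of the same number gave correlations of their deviations of 0.02, -0.0038 and 0.06. Libraries of different numbers gave -0.063 to 0.044. Pairing was thus not seen, but values near 0 cannot exclude it. The planned sum of Hspa1a and Hspa1b was not run because no row bore the name Hspa1a. The depth limited Hspa1b, at 0 to 8 counts a library, to a counting ratio, and the causes of the lost calls were not tested.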
